A study of Mus musculus with 8 samples.

Results

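The signals of 10 imprinted genes that control embryonic growth, H19, Igf2, Igf2r, Meg3, Dlk1, Peg3, Cdkn1c, Grb10, Mest and Peg10, were examined in single myocardial cells of the mouse heart tube. The genes were chosen by name, and every probe whose gene symbol in the files matched a name was kept, which gave 23 of the 55681 probes of the array and 10 of the 24086 genes with a symbol. Each array carried the amplified cDNA of 1 cell from the heart at embryonic day 8.5 with 9 somites. The 4 WT cells were Mesp1+/+ Sox17flox/flox, and the 4 KO cells were Mesp1Cre/+ Sox17flox/flox, so that the cells of both groups carried the floxed allele of Sox17, which encodes an HMG-box transcription factor. Mesp1-Cre is active in early mesoderm, from which both the myocardium and the endocardium arise, and the deletion was therefore not limited to the myocardium. WT cells lacked the Cre allele, so that its presence and the deletion cannot be told apart. The study asked whether the loss of Sox17 alters the transcripts of differentiating cardiac cells. The labels name no embryo or litter for any cell. Each genotype was accordingly treated as 1 sample of cells without a replicate check, no p-value is given, and each SD is the spread between 4 cells.

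An imprinted gene is transcribed mainly from the allele inherited from 1 parent. This bias goes back to a DNA methylation mark, left at a nearby control region in the germ line of the mother or father. Many such genes act on fetal and placental growth, and those expressed from the paternal allele tend to promote growth, whereas those expressed from the maternal allele tend to restrain it. Among the 10 genes, H19, Igf2r, Meg3, Cdkn1c and Grb10 are expressed mainly from the maternal allele in most tissues of the mouse embryo, and Igf2, Dlk1, Peg3, Mest and Peg10 from the paternal allele. The arrays measured total signal and carried no information on the allele of origin.

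The probes are DNA oligonucleotides on the strand of the transcript, and their positions are those given in the files, in mouse build mm9. The probes shown first are those of the non-coding RNAs H19 and Meg3, because the signal of these genes depended on which probe was read. H19, at chr7:149761492-149761551 on the minus strand, was read by its most 3′ probe and by 6 probes upstream of it, of which the farthest lay 925 bases away and was at the floor in all 8 cells. Meg3, on the plus strand of chromosome 12, was read by a bright 3′ probe at chr12:110809678-110809737 and by upstream probes, of which that 10120 bases away is shown.
H19, most 3′ probe: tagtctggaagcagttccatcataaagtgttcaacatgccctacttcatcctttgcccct
H19, probe 681 bases upstream: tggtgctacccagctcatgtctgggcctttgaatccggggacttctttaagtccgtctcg
H19, probe 925 bases upstream: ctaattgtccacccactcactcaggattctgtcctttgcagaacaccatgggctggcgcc
Meg3, most 3′ probe: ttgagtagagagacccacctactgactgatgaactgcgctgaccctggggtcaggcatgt
Meg3, probe 10120 bases upstream: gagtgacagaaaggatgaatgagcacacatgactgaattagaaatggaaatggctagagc

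For the protein-coding genes on which the comparison turned, 30 bases of each probe are shown. The probes lay at chr7:150644753-150644812 on the minus strand for Cdkn1c, at chr17:12875409-12875467 on the minus strand for Igf2r and at chr6:30698279-30698338 on the plus strand for the most 3′ probe of Mest. A second Mest probe, at chr6:30697385-30697444, lay 894 bases upstream and is shown because it differed between the genotypes where the most 3′ probe did not. Of the 23 probes, 1 held the letters AATAAA, the usual polyadenylation signal, and it was this second Mest probe, in which they are given in capitals; 10.1% of all 55681 probes held them on the same strand. The reverse complement TTTATT was in 3.7% of all probes and in 0 of the 23. Exon and UTR annotation was not used here.
Cdkn1c, first 30 bases: cgtagagcagcccacggttttgtggaaatc
Igf2r, first 30 bases: agagttgtatataggtggcatttacatacc
Mest, most 3′ probe, first 30 bases: tctgaaagacctaagagcaaatggtgctga
Mest, second probe, 30 bases around the motif: gacatctgaccaAATAAAtagagctgctgt

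The following facts bear on every value below. Signals are array intensities in arbitrary units, scaled between arrays and set to a floor of 50 where lower, and differences are those of mean log2 signals, KO minus WT. Detection means that the scanner software marked a probe as well above background in that cell, and a present probe or gene is one with all 4 WT cells or all 4 KO cells detected. WT cells had 19.6% to 26.0% of all probes detected, and KO cells 17.1% to 24.3%. All 10 myocardial markers read, among them Tnnt2, Actc1, Myl7, Nkx2-5 and Ttn, were detected in all 8 cells. Of 13 endothelial and endocardial markers, 2 to 4 were detected per WT cell and 2 to 5 per KO cell, of which 2, Plvap (at most 99.2) and Kdr (443 to 692), gave signal above background in every cell and 6, among them Cdh5 and Tek, in 0 cells. At most 1 of 7 endoderm markers, 1 of 7 erythroid markers and 2 of 8 proepicardial and mesenchymal markers was detected in any cell. The 2 probes of Sox17 and the probe of Mesp1 were detected in 0 of 8 cells, and therefore did not check the genotypes. The WT arrays shared 1 slide and 1 scan and the KO arrays another of each, and a slide effect cannot be told apart from one of genotype.

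A group of 5 of the 10 genes was detected in all 8 cells, namely H19, Igf2r, Meg3, Cdkn1c and Mest. Of all genes on the array, each read by its brightest probe, 9.25% were detected in every cell and 48.1% in 0 cells. The genes detected throughout comprised 4 of the 5 that are expressed mainly from the maternal allele and 1 of the 5 expressed mainly from the paternal allele. Igf2, Grb10 and Peg3 were detected in 0 cells with every probe, and Dlk1 and Peg10 in 2 cells each with their brightest probe. Per cell, 6, 6, 5 and 5 of the 10 genes were detected in the WT cells, taken in the order of their numbers throughout, and 6, 5, 5 and 6 in the KO cells. Among the 23 probes, 12 were detected in all 8 cells (9.52% of all probes on the array were), 5 in 1 or 2 cells and 6 in 0 cells.

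**Figure D1:**
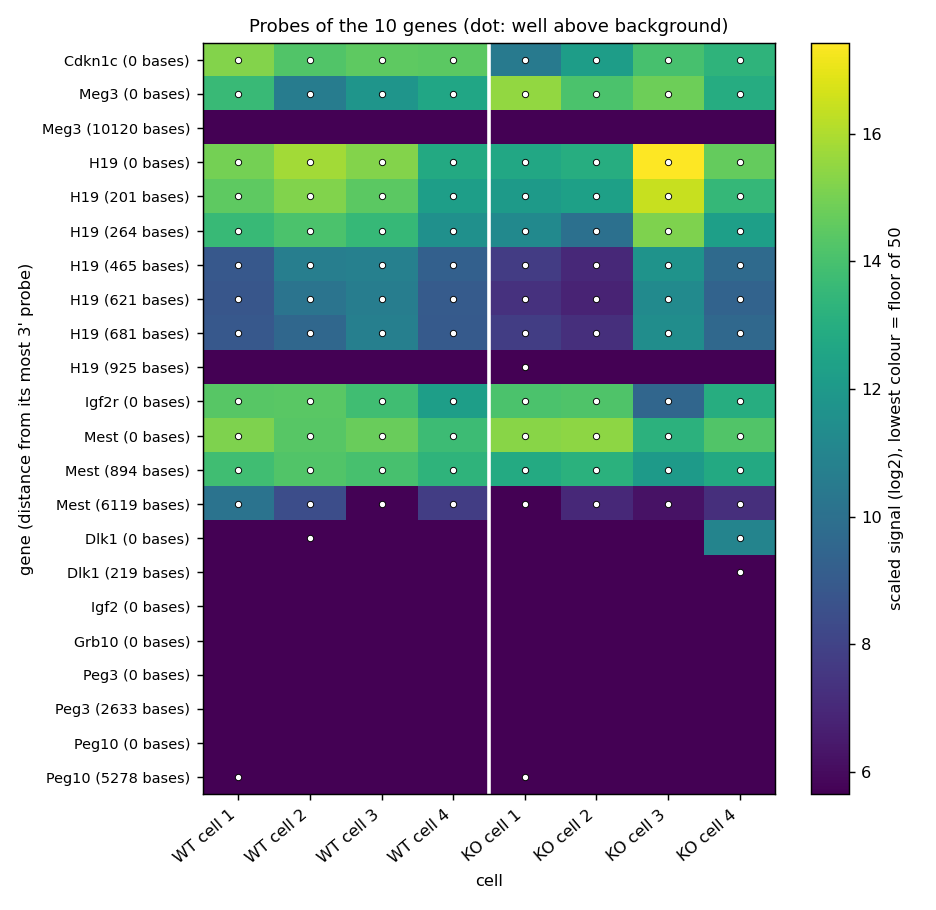
Scaled signal (log2, colour; the darkest colour is the floor of 50) of the probes of the 10 imprinted genes, 1 Meg3 probe left out, in the 4 WT and 4 KO cells. Rows are grouped by gene and give the distance in bases from the most 3′ probe of the gene, and a dot marks a probe well above background; the rows of Igf2, Grb10 and Peg3 hold no dot, and 12 rows are filled in all 8 cells.

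Of the 5 present genes, 0 were at least 5-fold lower in KO cells and 0 were at least 5-fold higher, the size of change that the study counted. Over all 3413 present genes, by the brightest probe of each, 10.6% were at least 5-fold lower and 2.64% at least 5-fold higher in KO cells. At 2-fold, Cdkn1c and Igf2r were lower and Meg3 was higher, beside 22.7% lower and 12.5% higher among all present genes. The median difference was 0.00 over the 10 genes and -0.26 over the 5 genes detected in all 8 cells, beside 0.00 over all present genes and 0.15 over the 5300 probes detected in all 8 cells. The median over the 10 genes was largely set by Igf2, Grb10, Peg3 and Peg10, which were at the floor in all 8 cells. Among the 12 probes of these genes detected in all 8 cells, the lowest WT cell exceeded the highest KO cell for 2, the Cdkn1c probe and the second Mest probe, and the reverse held for 0. Over the 5300 probes detected in all 8 cells the corresponding shares were 0.717% and 4.21%. Some of these 5300 probes were at the floor in all 8 cells and could show neither a difference nor a separation. They lower every share of the 5300 probes given here. The 12 probes belong to 5 genes and share transcripts, and they are not 12 independent measurements.

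**Figure D2:**
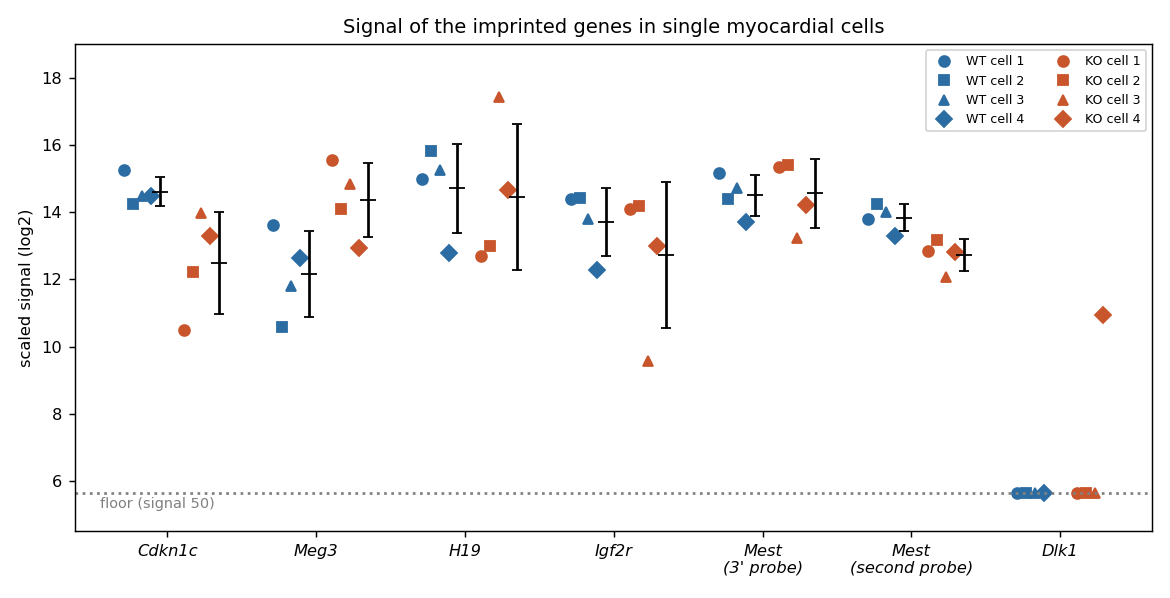
Scaled signal (log2) of 6 probes of the 5 genes detected throughout and of the Dlk1 probe in each WT (blue) and KO (orange) cell; black bars are the mean ± SD of 4 cells, not drawn for Dlk1, and the dotted line is the floor of 50. All WT cells lie above all KO cells for Cdkn1c and the second Mest probe, and the genotypes overlap for Meg3, H19, Igf2r and the most 3′ Mest probe.

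**Figure D3:**
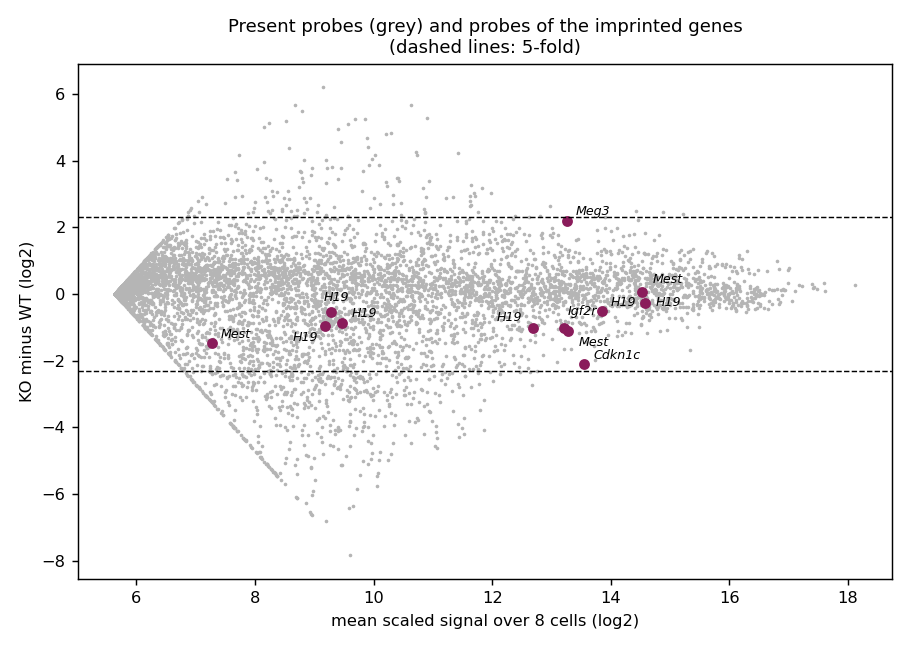
Difference KO minus WT (log2) of every present probe (grey, 7460 probes) and of the 12 probes of the imprinted genes among them (purple) against the mean scaled signal of the 8 cells (log2). Dashed lines mark a 5-fold difference, and Meg3 (2.2) and Cdkn1c (-2.12) lie just inside them.

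Cdkn1c encodes p57, an inhibitor of cyclin-dependent kinases that holds cells in G1, and it is expressed from the maternal allele of the distal chromosome 7 cluster. Its signal was 38776, 19168, 22956 and 22841 in the WT cells and 1438, 4734, 16202 and 10006 in the KO cells. Every WT cell was brighter than every KO cell, and the dimmest WT cell and the brightest KO cell were close. On the log2 scale, WT cells averaged 14.61 ± 0.44 and KO cells 12.49 ± 1.52 (SD, n = 4 each), a difference of -2.12 or 4.33-fold that was larger than the SD of either genotype. KO cells ranged over 11.3-fold and WT cells over 2.02-fold. Of the 5300 probes detected in all 8 cells, some of them at the floor throughout, 2.21% had a difference as low or lower. With each cell left out in turn the difference was between -2.61, without KO cell 3, and -1.45, without KO cell 1. The separation of the genotypes held with the 75th percentile as the scale, with the 50th percentile of all probes, with quantile normalization, with normexp background correction and without scaling. A floor of 100 or no floor could not change it, since every Cdkn1c signal was far above 100.

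Meg3 is a non-coding RNA expressed from the maternal allele at the head of a long cluster of small RNAs on chromosome 12. With its most 3′ probe the signal was 12523, 1536, 3565 and 6356 in the WT cells and 47602, 17548, 29310 and 7872 in the KO cells. KO cells 1, 2 and 3 were brighter than every WT cell, and KO cell 4 lay below WT cell 1. WT cells averaged 12.16 ± 1.28 and KO cells 14.36 ± 1.11 (log2, SD, n = 4 each), a difference of 2.2 or 4.59-fold that was larger than the SD of either genotype although the genotypes overlapped. A difference as high or higher was found for 1.19% of the probes detected in all 8 cells, some of them at the floor throughout. It was 1.67 without WT cell 2 and 2.68 without WT cell 1.

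The Meg3 probe 10120 bases upstream was detected in 0 cells. With the mean of all Meg3 probes in place of the brightest the difference was 0.55. The probe 10120 bases upstream was at the floor in all 8 cells, and its difference of 0 draws this mean toward 0.

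H19 is a maternally expressed non-coding RNA, the precursor of miR-675, that lies beside Igf2 on chromosome 7 and shares its enhancers. Its most 3′ probe gave 32476, 57382, 38701 and 7073 in the WT cells and 6647, 8153, 176536 and 25935 in the KO cells. The highest value was that of KO cell 3 and the lowest that of KO cell 1, so that KO cells, which ranged over 26.6-fold, spanned all WT cells, which ranged over 8.11-fold. WT cells averaged 14.71 ± 1.32 and KO cells 14.45 ± 2.17 (log2, SD, n = 4 each), and the difference of -0.26 was far smaller than the SD of either genotype; 21.3% of the probes detected in all 8 cells had a difference as low or lower. The direction with this probe rested on single cells. The difference was -1.25 without KO cell 3 and 0.32 without KO cell 1.

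The spread of H19 between cells was shared by its probes. All 6 probes within 681 bases of the 3′ probe were detected in all 8 cells, and KO cell 3 was the brightest cell with each of them. For the probe 681 bases upstream the signal was 481, 773, 1678 and 501 in the WT cells and 224, 149, 2711 and 785 in the KO cells. Over the 8 cells, which share slide and genotype in 2 sets of 4, the Pearson r of the log2 signals was between 0.83 and 0.995 for the 15 pairs of these probes. KO minus WT was between -1.01 and -0.26 for the 6 probes, smaller than the SD of KO cells, 1.89 or more, with each. With 1 cell left out, it was at most -0.022, -0.286, -0.188 and -0.337 for the probes 201, 264, 465 and 621 bases upstream. For that 681 bases upstream it reached 0.064. The probe 925 bases upstream was detected in KO cell 1 only, at the floor.

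**Figure D4:**
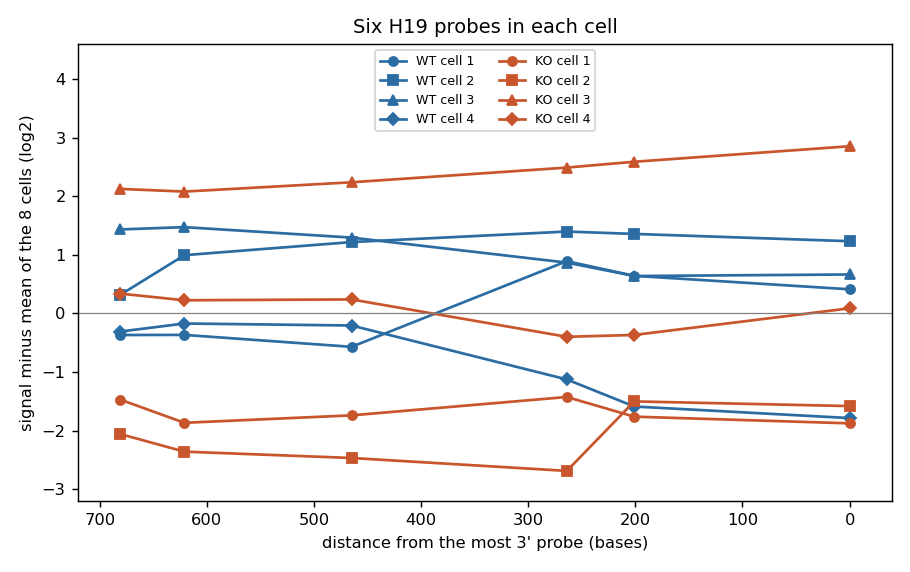
Log2 signal of the 6 H19 probes detected in all 8 cells, minus the mean of the 8 cells for each probe, against the distance from the most 3′ probe in bases; blue lines are WT and orange lines KO cells. KO cell 3 is the highest with all 6 probes, and KO cells 1 and 2 are low throughout, while WT cell 1 passes from above to below the mean with distance (Pearson r between probes 0.83 to 0.995 over 8 cells).

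Igf2, the insulin-like growth factor that promotes fetal growth and that lies in the same domain as H19, was read by 1 probe at chr7:149839661-149839720. Before the floor its signal was 1.4 to 4.0 in the 8 cells, and it was detected in 0 of them. Part of the probe is shown because the result is an absence of signal that holds for these bases only.
Igf2, first 30 bases: atcaaattatgtggtaattctgcaatgtag
Igf2 transcripts were therefore below the detection limit of this probe in cells where its neighbour H19 was bright, and a value below background is not a measure of absence.

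Igf2r encodes the cation-independent mannose 6-phosphate receptor, which carries the IGF2 ligand to lysosomes and so limits growth. It was printed as 10 spots on each array, whose log2 signals had an SD of 0.071 to 0.144 within an array. The signal was 21264, 21930, 14331 and 4913 in the WT cells and 17561, 18592, 752 and 8206 in the KO cells. KO cell 3 stood far below the other cells, and the genotypes overlapped. WT cells averaged 13.72 ± 1.01 and KO cells 12.71 ± 2.17 (log2, SD, n = 4 each). The difference of -1.01 did not exceed the SD of either genotype, and 7.58% of the probes detected in all 8 cells had one as low or lower. Without KO cell 3 it was 0.05.

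Mest encodes a protein of the hydrolase fold that is expressed from the paternal allele, and its probes disagreed. The most 3′ probe, also printed as 10 spots, with an SD of 0.033 to 0.047 within an array, gave 36891, 21234, 26960 and 13416 in the WT cells and 41737, 43367, 9662 and 19133 in the KO cells. The genotypes overlapped. WT cells averaged 14.49 ± 0.62 and KO cells 14.55 ± 1.03 (log2, SD, n = 4 each), a difference of 0.06 that was within the spread between cells and that lay between -0.22 and 0.50 with each cell left out in turn. Of the probes detected in all 8 cells, 56.5% had a difference as high or higher.

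The second Mest probe, which holds AATAAA, gave 14242, 19432, 16549 and 10006 in the WT cells and 7283, 9189, 4258 and 7200 in the KO cells. Every WT cell was brighter than every KO cell, although WT cell 4 and KO cell 2 nearly met. WT cells averaged 13.84 ± 0.41 and KO cells 12.72 ± 0.47 (log2, SD, n = 4 each), a difference of -1.12 or 2.17-fold that was larger than both SDs. It was between -1.30 and -0.90 with each cell left out. The genotypes overlapped, however, with the 75th percentile as the scale, with quantile normalization and without scaling, and stayed apart with the other settings named for Cdkn1c.

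The ratio of the second to the most 3′ Mest probe within a cell needs no scaling between arrays. It was 0.386, 0.915, 0.614 and 0.746 in the WT cells and 0.174, 0.212, 0.441 and 0.376 in the KO cells. WT cell 1 lay below KO cell 3, and the other WT cells lay above all KO cells. On the log2 scale the ratio averaged -0.66 ± 0.53 over WT cells and -1.84 ± 0.64 over KO cells (SD, n = 4 each), a difference of -1.18. The genotypes overlapped, and the ratio was formed after the values of the second probe were seen, so that it describes these 8 cells only. The second probe is assigned in the files to another transcript accession of Mest than the most 3′ probe. The farthest probe, 6119 bases upstream, was dim, with 51.8 to 1109 in the WT and 50 to 151 in the KO cells and a difference of -1.48 that is set in part by the floor. Over the 8 cells the Pearson r between the second and the most 3′ probe was 0.393, unlike the H19 probes.

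KO cell 3 stood apart in several of these genes. It was the brightest of the 8 cells for H19 and the dimmest for Igf2r and for both bright Mest probes, and it was the brightest KO cell for Cdkn1c. It had the lowest share of detected probes, 17.1%, close to the 17.2% of KO cell 2, and whether this bears on these values was not tested. Over the 8 cells the Pearson r of log2 signals was 0.86 between Igf2r and Mest, the highest of the 10 pairs of the 5 genes, and -0.60 between Meg3 and Cdkn1c, the lowest. These are descriptions of 8 cells of 2 genotypes on 2 slides.

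Dlk1, a transmembrane protein of the DELTA family that restrains differentiation of precursor cells, is paternally expressed and lies in the cluster of Meg3. The probe at chr12:110698721-110698781 reached 1976 in KO cell 4 and stayed at the floor in every other cell. It was also marked as well above background in WT cell 2, at an unfloored signal of 21.2. The second probe, 219 bases upstream, was detected in KO cell 4 only, at an unfloored signal of 12.8. No fold is given, since the other KO cells and all WT cells were at the floor.
Dlk1, first 30 bases: tacacatattgtcttgtgttgctggtgcca

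KO cell 4 also showed signal at the other end of this cluster. Mirg, a maternally expressed non-coding RNA that hosts microRNAs, was read at chr12:110987569-110987628, 289 kb from the Dlk1 probe, and reached 5750 in KO cell 4, while the other 7 cells stayed at the floor.
Mirg, whole probe: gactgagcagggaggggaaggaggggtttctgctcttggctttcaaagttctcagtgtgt
The other Mirg probes did not show this pattern. That at chr12:110968992-110969051 was detected in all 8 cells at 50 to 123, highest in KO cell 2, and that at chr12:110979653-110979712 was at the floor in all 8 cells. A run of 3 unnamed probes, each overlapping the next, lay on the same strand between the latter and the bright Mirg probe. They read 1258, 1349 and 1336 in KO cell 4 and at most 194 in any other cell. Whether they read the Mirg transcript was not tested. Of the 90 probes in this window, 6 were at or above 500 in KO cell 4, 2 in KO cell 2 and 1, that of Meg3, in each of the other cells. Meg3 itself was dimmest in KO cell 4 among the KO cells. Over all genes on the array, 1.17% were above the floor in KO cell 4 and at the floor in the other 7 cells, and the same share was 0.764% to 2.54% for the other cells, each in turn.

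**Figure D5:**
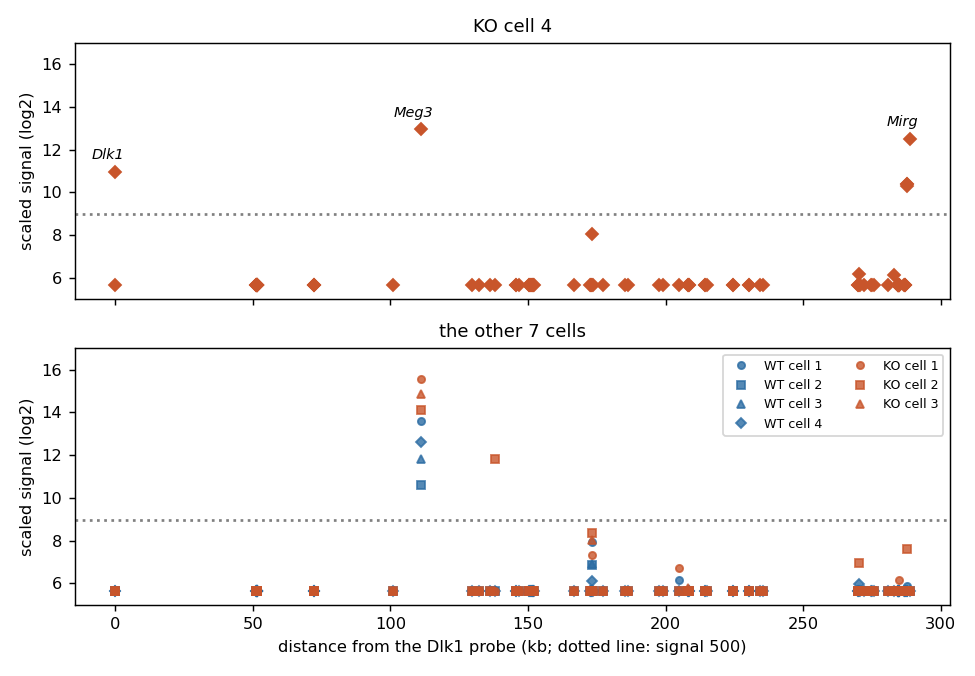
Scaled signal (log2) of the probes between Dlk1 and Mirg, 1 Meg3 probe left out, against the distance from the Dlk1 probe in kb, in KO cell 4 (top) and in the other 7 cells (bottom; blue WT, orange KO). The dotted line is a signal of 500. In KO cell 4, 6 probes lie above it, namely those of Dlk1, Meg3 and Mirg and unnamed ones that lie between Mirg probes. In each of the other cells Meg3 does, with 1 further probe in KO cell 2.

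The remaining genes gave no usable signal. Grb10, an adaptor that dampens insulin and IGF receptor signalling, was read by 1 probe with an unfloored signal of 1.3 to 8.4. Peg3, a zinc finger protein, was read by 2 probes with 1.2 to 4.2. Peg10, a retrotransposon-derived gene needed in the placenta, was at the floor with both probes, and 1 of them was marked as well above background in WT cell 1 and KO cell 1 at 14.7 and 10.6. Igf2, Grb10, Peg3 and Peg10 thus allow no comparison between WT and KO cells at the sensitivity of these probes.

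Other imprinted genes were read from a list of 50, whose imprinting in these cells was not tested. On the array were 48 of them. Of these, 5 were detected in all 8 cells (9.25% of all genes were), 18 in 0 cells (48.1% of all genes), and 7 were present. Among the 7, 1 was at least 5-fold lower in KO cells and 1 at least 5-fold higher, where 10.6% and 2.64% of all present genes were, and the median difference was -0.56, beside 0.00 over all present genes. The gene that was lower, Trappc9, a subunit of a vesicle tethering complex, read 16588, 50, 223 and 1129 in WT cells and 50, 316, 50 and 50 in KO cells. Its difference of -3.09 rested much on WT cell 1, without which it was -1.55. A second Trappc9 probe was at the floor in all 8 cells. The gene that was higher, Cd81, a tetraspanin of the same distal chromosome 7 region as Cdkn1c, read 1297, 50, 3775 and 1354 in WT cells and 33075, 12770, 527 and 1735 in KO cells. The genotypes overlapped for Cd81, and its difference of 2.55 was smaller than the SD of 2.71 in each. Without WT cell 2 it was 1.24, less than 5-fold. Cd81 was detected in 3 WT cells and 4 KO cells, so it passed the filter through KO cells alone. Nothing is therefore read from the count of higher genes in this list.

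Of the other brightest genes of this list, Gnas, which encodes the stimulatory G protein subunit, read 23105, 6739, 21295 and 15808 in WT cells and 5594, 14997, 4294 and 14226 in KO cells, a difference of -0.84. Plagl1, a zinc finger gene, was bright or at the floor in cells of either genotype, with 50, 5504, 11524 and 10554 in WT and 20517, 117, 50 and 3978 in KO cells. H13 and Blcap differed by -1.23 and 0.96, each less than the larger SD of its genotypes. All 7 present genes of the list overlapped between WT and KO cells. The share of separated genes was not counted over all present genes. Among the probes detected in all 8 cells it was low, 0.717% with WT above and 4.21% with KO above. Nothing is therefore read from the overlap of the 7.

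The IGF and insulin pathway, in which Igf2, Igf2r and Grb10 act, was read from a list of 38 genes, all on the array. Of these, Igf1, Irs2 and Eif4ebp1 were detected in all 8 cells, which makes 3 (9.25% of all genes were). A further 12 were detected in 0 cells (48.1% of all genes), and 7 were present. Among the 7, 3 were at least 5-fold lower (10.6% of all present genes were) and 0 at least 5-fold higher in KO cells. The 3 genes passed the filter through WT cells alone, being detected in 1 or 2 KO cells each, so that they had to differ, and nothing is read from their count. Shc1, an adaptor named here after its values were seen, was not present, being detected in 1 WT and 3 KO cells, and differed by 3.33. Akt1, a kinase downstream of the receptors, read 44302, 4374, 5714 and 11392 in WT cells and 2236, 50, 50 and 6167 in KO cells, a difference of -4.62. KO cell 4 lay above WT cells 2 and 3, and the difference was -5.90 to -3.59 with each cell left out. Igfbp5, an IGF binding protein, and Grb2, an adaptor, differed by -2.98 and -2.57. WT and KO cells overlapped for each, and KO cell 4, at 5536, was the brightest of the 8 cells for Grb2. With each cell left out the difference was -4.62 to -2.30 for Igfbp5 and -4.27 to -1.83 for Grb2, and it fell under 5-fold for Igfbp5 without WT cell 3 and for Grb2 without WT cell 1, WT cell 3 or any of KO cells 1, 2 and 3. A second Grb2 probe was detected in 1 WT and 1 KO cell and differed by -0.605.

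The ligand Igf1 was detected in all 8 cells, with 3137, 501, 470 and 352 in WT cells and 827, 926, 798 and 673 in KO cells, and did not differ in mean beyond the spread between cells (0.16). Eif4ebp1, a translational repressor controlled by mTOR, differed by -0.44. The gene with all KO cells above all WT cells was Rheb, an activator of mTOR chosen here after its values were seen, with 50, 50, 50.3 and 105 in WT cells and 214, 563, 111 and 346 in KO cells. Rheb was detected in 2 WT cells and 4 KO cells, so it passed the filter through KO cells alone. Nothing is read from this separation.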

How the data were processed

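For each of 8 one-colour arrays, 1 per cell, the authors deposited the intensity values that the scanner software (Agilent Feature Extraction; version 12.0.2.2) had extracted, and the processed signal used here had been corrected for background by that software per the file headers. The mean spot and median background signals served for an alternative correction. Before hybridisation the cDNA was primed with oligo(dT), amplified by PCR, transcribed from a T3 promoter and labelled with Cy3, and cells were typed by PCR of markers. In the study, values under 50 were set to 50 and arrays were scaled on the 50th percentile.

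Control spots and outlier spots (146 to 220 per array) were left out, 0 spots were saturated, and replicate spots were averaged per probe on the log2 scale. Each array was shifted, by -0.76 to 0.68, so that the 50th percentile of the 5300 probes detected on all 8 arrays equalled the mean over arrays, and lower values were raised to a floor of 50, at which values have no order. A gene was read by its probe of highest mean signal, and a difference was counted from 5-fold (2.32 on the log2 scale). Every probe of the 10 genes was named, apart from 1 Meg3 probe whose own result is not reported here, and of the lists the genes past 5-fold and the 5 brightest. The genes and lists were chosen with earlier results of these data known. The counting was tested on simulated data with planted changes larger than 5-fold. The simulated spread between cells was below the median SD here, 0.69 in WT and 0.65 in KO cells. The simulation therefore does not show how the 5-fold rule performs on these cells. Older symbols were looked up in a RefSeq gene table. Python 3.11.15, pandas 2.3.3, R 4.3.3 and limma 3.58.1 were used. The number of arrays limits the precision.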

Additional observations from a re-analysis of the deposited data

Results flagged for a closer look

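The signal of Dlk1 in KO cell 4 was 1976, and the other 3 KO cells were at the floor of 50, so that the gap to the nearest cell made up the whole range of the KO cells. It was the 1 group past the limit among 20 groups of 4 cells (10 genes in 2 genotypes), of which 11 had a value above the floor. Chance puts about 1 in 20 groups of measured values past this limit; that rate does not apply here, because with the other 3 cells set to the floor the gap equals the range by construction.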

How the results depend on the processing

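No member was at least 5-fold lower in KO cells as reported, and the count was 1, that of Cdkn1c, with the 50th percentile taken over all probes, with quantile normalization, with detection by positive and significant signal, and without scaling between arrays, an alternative chosen after seeing the data. With a 2-fold rule 2 genes were lower, Cdkn1c and Igf2r, and 1 was higher, Meg3. With each cell left out in turn, the count of lower genes ranged from 0 to 1 (Cdkn1c, without KO cell 3 and without KO cell 4) and that of higher genes from 0 to 1 (Meg3, without WT cell 1, WT cell 4 or KO cell 4). The median difference of the 10 genes was 0.21 with normexp background correction, the cause of which was not tested, and 0.00 under every leave-one-out. Igf2, Grb10, Peg3 and Peg10 were at the floor in all 8 cells, and their differences of 0 largely set this median. Nothing is read from its stability. The number of genes detected per cell differed by 0.00, and by -0.17 to 0.17 with each cell left out. Over the other settings the difference of Cdkn1c ranged from -2.47 to -1.73, that of Meg3 from 0.55 (mean of all its probes) to 2.25, that of H19 from -1.29 to -0.26, that of Igf2r from -1.36 to -0.54, and that of Mest from -0.85 (mean of its 3 probes) to 0.24. The median of the 5300 probes detected in all 8 cells moved from 0.15 to 0.05 with the 75th percentile, to 0.00 with all probes, to 0.32 with quantile normalization and to 0.01 without scaling.

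No paired analysis was possible because the replicate numbers only name cells, the labels tie no cells to an embryo, and no test was made. The slide could not be used as a block, since each slide held 1 genotype. Signal over background limits Igf2, Grb10, Peg3 and Peg10, for which differences were not detectable.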

Other observations

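Transcripts next to the 10 genes were seen in single cells. Igf2os, antisense to Igf2, read 150 in WT cell 3, 2152 in WT cell 4 and 10291 in KO cell 1, and was at the floor in the other 5 cells, while Igf2 was detected in 0 cells. Airn, the paternally expressed RNA that overlaps Igf2r, read 3045 in WT cell 2, 806 in KO cell 2 and 235 in KO cell 4 with its brightest probe. Another Airn probe read 359 in KO cell 2 and was at the floor in the other 7 cells. Peg3os read 426 in KO cell 4 and was at the floor elsewhere. Ddc, the neighbour of Grb10, read 50, 1102, 383 and 626 in WT cells and was at the floor in all KO cells; it was detected in 3 of 4 WT cells and so was not counted as present. Sgce, the neighbour of Peg10, read 2695 in KO cell 1 and 3008 in KO cell 2 and was at the floor in the other 6 cells. In the Meg3 cluster, 1110006E14Rik read 3653 in KO cell 2 and was at the floor in the other 7 cells. These genes were chosen after their values were seen, and no difference between genotypes was counted from them.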
